A study of Mus musculus with 16 samples.

Results

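Genes that mark T cells and natural killer (NK) cells were examined in the footpads of mice given pristane, a mineral oil that induces arthritis in susceptible mice. The set held 33 genes chosen by name, in 8 roles: the CD3 chains of the T cell receptor complex, proximal signalling molecules, adhesion and surface molecules, the coreceptors CD4 and CD8, costimulatory and inhibitory receptors, lineage transcription factors, NK cell receptors, and cytotoxic granule proteins. A total of 31 of the 33 genes had a probe set naming that gene alone, each exactly 1, out of 19938 genes measured. Lck and Tcf7 were not analysed here.

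RNA from footpads was hybridized to 16 arrays, with 4 arrays for control and 4 for pristane-treated footpads of each of the AIRmax and AIRmin lines. AIRmax and AIRmin are outbred mouse lines selected for a maximal or a minimal acute inflammatory reaction. Each group held 2 males and 2 females, all labelled as aged 2 to 4 months. Pristane was given as 2 intraperitoneal injections of 0.5 ml with 60 days between them, and footpads were taken at day 0 in the control groups and at day 160 in the pristane groups, counted from the second injection. The age label is the same for mice taken at day 0 and at day 160, so that the labels do not settle age at sampling, and treatment, day and age cannot be told apart within a line. In addition, the sources used here do not say whether the control mice had been injected. The arrays carry the numbers 105 to 108 (AIRmax control), 109 to 112 (AIRmax pristane), 113 to 116 (AIRmin control) and 117 to 120 (AIRmin pristane), with the 2 males before the 2 females in each group. Because the numbers run in blocks by group, anything that followed that order cannot be told apart from group either.

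T cells read antigen through the T cell receptor, whose signal is carried into the cell by the CD3 chains, the kinases Lck and Zap70 and the adaptor Lat, with CD4 or CD8 binding the presenting MHC molecule beside it. NK cells carry no such receptor and kill through granzymes and perforin after balancing activating and inhibitory receptors. T cells in arthritic joints and skin are usually a minority of the cells, so that their transcripts are diluted in RNA of whole tissue. In such bulk RNA, fewer cells of a type and less RNA per cell cannot be told apart.

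Values below are log2 signals, on which a difference of 1 is a doubling. A gene was called when its Benjamini-Hochberg adjusted p from limma, over all 19938 genes, was under 0.05. Groups without overlap are those in which every array of the one lay above every array of the other. The 95th percentile of 1194 odorant and vomeronasal receptor genes, which footpads are not known to use, served as a reference for background and lay between 4.26 and 4.64 on the 16 arrays. By that measure 18 of the 31 genes were above background on all 16 arrays: Cd3e, Cd3g, Cd247, Lat, Ubash3a, Cd2, Cd5, Cd6, Thy1, Cd8a, Cd8b1, Cd28, Lef1, Foxp3, Gata3, Tbx21, Prf1 and Nkg7. A further 8 genes were above it on some arrays, namely Cd3d, Zap70, Cd4, Cd27, Icos, Eomes, Ncr1 and Gzmb. Trat1, Ctla4, Klrd1, Klrb1c and Gzma were above it on none. Cd3e, Cd3g, Cd247 and both CD8 chain genes were thus measured throughout in footpads, and Cd3d passed the reference on 12 arrays. The NK cell receptors were at or near background: Ncr1 passed the reference on 2 arrays, and Klrd1 and Klrb1c on none.

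The signals of all 31 genes on each array are set out by role in the heat map of deviations.

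**Figure D1:**
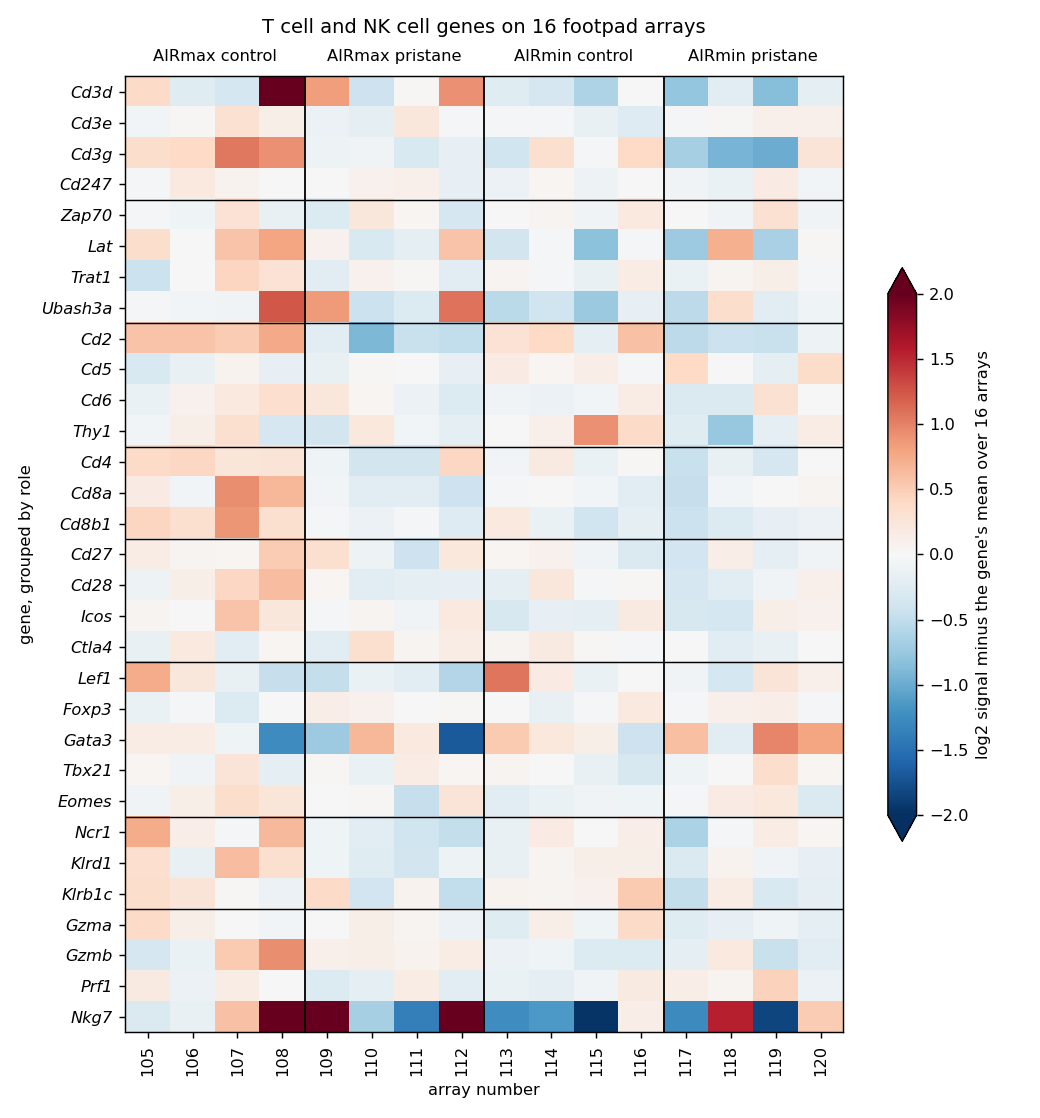
Log2 signal of each of the 31 genes on each of the 16 arrays, minus that gene's mean over the 16 arrays (color, limits at 2 and -2), with genes in rows by role and arrays in columns by group. Cd2 was high in AIRmax control arrays and low in AIRmax pristane arrays. Cd3g was also high in AIRmax control arrays, but its lowest arrays were 113, 117, 118 and 119, all of AIRmin. Nkg7 and Ubash3a were high on arrays 108, 109, 112 and 118 of 3 groups.

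Promoter sequence is shown for some genes of the set, chosen by name, so that the neighbouring CD3 genes can be set beside Cd8a, Nkg7 and Ubash3a. Other genes named below, such as Foxp3, Ncr1 and Lat, also have an entry and are not shown. RefSeq promoters of GRCm38.p6 held 25 of the 33 genes. Cd3g, Cd3d and Cd3e are neighbours on chromosome 9, and Cd3g and Cd3d are transcribed away from each other. Each line gives the 250 bases before the start of the gene, 5′ to 3′ on its own strand. Capitals mark every match, on either strand, to one of 5 motifs. The letters searched were GGAAG for ETS factors, TGTGGT for RUNX factors and AGATAA for the GATA family. Those for TCF and LEF factors were CTTTGA, and those for T-box factors were GGTGTG. Matches of different motifs may share letters, as the ETS and T-box matches at the end of the Nkg7 sequence do.
Cd3g (chr9:44980432-44980681, minus strand): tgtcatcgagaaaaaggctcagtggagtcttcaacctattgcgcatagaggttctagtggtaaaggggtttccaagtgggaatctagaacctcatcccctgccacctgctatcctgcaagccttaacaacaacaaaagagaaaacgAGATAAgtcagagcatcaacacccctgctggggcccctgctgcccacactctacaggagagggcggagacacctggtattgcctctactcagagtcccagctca
Cd3d (chr9:44981536-44981785, plus strand): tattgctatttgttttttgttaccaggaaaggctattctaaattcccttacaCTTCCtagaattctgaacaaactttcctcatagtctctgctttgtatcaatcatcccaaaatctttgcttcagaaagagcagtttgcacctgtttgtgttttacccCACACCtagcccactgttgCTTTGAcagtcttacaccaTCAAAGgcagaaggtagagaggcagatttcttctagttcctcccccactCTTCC
Cd3e (chr9:45009612-45009861, minus strand): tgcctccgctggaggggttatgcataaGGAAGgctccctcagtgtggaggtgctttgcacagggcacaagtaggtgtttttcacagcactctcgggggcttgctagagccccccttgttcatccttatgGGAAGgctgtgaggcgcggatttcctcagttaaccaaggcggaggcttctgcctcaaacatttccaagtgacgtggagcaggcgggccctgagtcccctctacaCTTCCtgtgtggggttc
Cd8a (chr6:71373177-71373426, plus strand): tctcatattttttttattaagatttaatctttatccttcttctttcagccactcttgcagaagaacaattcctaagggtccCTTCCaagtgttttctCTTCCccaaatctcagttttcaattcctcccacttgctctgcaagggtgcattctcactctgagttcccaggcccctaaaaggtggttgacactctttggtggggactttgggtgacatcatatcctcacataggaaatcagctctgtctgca
Nkg7 (chr7:43436888-43437137, plus strand): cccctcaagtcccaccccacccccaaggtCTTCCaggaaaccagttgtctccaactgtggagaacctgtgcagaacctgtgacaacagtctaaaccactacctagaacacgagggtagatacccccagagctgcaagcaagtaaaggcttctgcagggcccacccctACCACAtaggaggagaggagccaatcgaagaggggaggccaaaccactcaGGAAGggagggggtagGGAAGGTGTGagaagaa
Ubash3a (chr17:31207816-31208065, plus strand): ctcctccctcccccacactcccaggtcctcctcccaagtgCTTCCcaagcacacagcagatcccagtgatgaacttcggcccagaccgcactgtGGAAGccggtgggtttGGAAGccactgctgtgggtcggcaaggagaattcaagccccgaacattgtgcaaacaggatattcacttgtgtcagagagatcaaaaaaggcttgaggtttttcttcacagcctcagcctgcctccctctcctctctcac

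The ETS letters GGAAG stood 2 times in the Cd3d and Cd8a sequences and 3 times in those of Cd3e, Nkg7 and Ubash3a. The Cd3g window did not hold GGAAG. Over all 32851 promoters of that length, 64.1% held GGAAG. The shorter GGAA was not searched, and it does stand in the Cd3g window. Cd3d also held 2 TCF and LEF matches and 1 T-box match, found in 13.8% and 16.3% of all promoters. The Cd3g window held 1 GATA match, a motif in 9.99% of promoters, and Nkg7 held 1 RUNX match, a motif in 14% of promoters. Such matches describe the letters and do not show that a factor binds there.

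The first comparison asked how pristane footpads of the arthritis-prone AIRmax line differed from controls. Cd2, an adhesion receptor of T and NK cells that binds CD48 in mice, fell in AIRmax footpads and was the single gene of the set that was called. The other genes with separated groups were also lower in pristane footpads, namely the CD3 chain gene Cd3g, both CD8 chain genes and the NK receptor gene Ncr1, with the regulatory T cell factor Foxp3 as an exception, but none of these passed the test. Over the 31 genes, 26 had a lower mean in pristane than in control footpads, against 44.3% of all genes, and the median log2 change was -0.16 against 0.03 over all genes.

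Cd2 was at 6.56, 6.56, 6.50 and 6.75 in AIRmax control footpads and at 5.78, 5.09, 5.55 and 5.49 in AIRmax pristane footpads. Every pristane array lay below every control array by a wide margin. The log2 change was -1.12 (SE 0.15, n = 4 in each group), which is 2.17-fold lower, with an adjusted p of 0.0264 from limma. With Cd2, 1 of 31 genes was called, or 3.23%, beside 0.281% of all genes in this comparison (0.14% higher and 0.14% lower). Leaving out single arrays moved the Cd2 change between -1.22 and -0.99 on the log2 scale. The adjusted p then rose to 0.106 without array 105, 0.0991 without array 106, 0.0904 without array 107, 0.0608 without array 111 and 0.0699 without array 112, so that with any of these arrays left out no gene of the set was called.

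Cd3g encodes the gamma chain of CD3, one of the chains that carry the receptor's signal. Its signals were 6.21, 6.25, 6.91 and 6.77 in AIRmax control and 5.76, 5.78, 5.55 and 5.69 in AIRmax pristane footpads. The groups did not overlap, and the 4 pristane arrays lay close together. The log2 change was -0.84 (SE 0.17), with an adjusted p of 0.0860 from limma. Cd3e, the gene of the epsilon chain, was at 5.59, 5.66, 5.94 and 5.76 in control and at 5.53, 5.45, 5.87 and 5.60 in pristane footpads, overlapping groups with a log2 difference of -0.13 (SE 0.12, adjusted p = 0.665 from limma). For Cd247, the zeta chain, the log2 difference was -0.06 (SE 0.10), and for Cd3d, the delta chain, it was -0.12 with an SE of 0.53.

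All 3 coreceptor genes were lower at an unadjusted p under 0.05, and none passed after adjustment. Cd8a, the alpha chain of CD8, was at 5.50, 5.29, 6.27 and 5.99 in AIRmax control and at 5.28, 5.12, 5.12 and 4.92 in AIRmax pristane footpads. The gap between the groups was narrow, since the lowest control array nearly met the highest pristane array. Their means differed by -0.65 on the log2 scale (SE 0.21, adjusted p = 0.211 from limma). Cd8b1, the neighbouring gene for the beta chain of CD8, was at 5.47, 5.37, 5.94 and 5.37 in control and at 5.01, 4.93, 5.01 and 4.79 in pristane footpads. The groups stood clearly apart, with a log2 difference of -0.60 (SE 0.14, adjusted p = 0.118 from limma). Cd4, the coreceptor of helper T cells, was at 5.29, 5.32, 5.15 and 5.17 in control and at 4.82, 4.54, 4.53 and 5.32 in pristane footpads. The last pristane array equalled the highest control array to the precision given, and the log2 difference was -0.43 (SE 0.17, adjusted p = 0.300 from limma).

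Among the NK receptors, Ncr1, which encodes the activating receptor NKp46, was at 4.39, 3.77, 3.61 and 4.29 in control and at 3.55, 3.43, 3.24 and 3.17 in pristane footpads. The groups did not overlap, but all 4 pristane arrays and part of the control arrays lay under the background reference, so no fold is given (adjusted p = 0.174 from limma). Klrd1, the CD94 chain of NK receptors, was lower at an unadjusted p under 0.05 and lay under the reference on all 16 arrays.

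Foxp3, the factor that defines regulatory T cells, was at 4.71, 4.83, 4.57 and 4.83 in control and at 4.97, 4.92, 4.85 and 4.87 in pristane footpads. Each pristane array was above each control array, by a margin that was small at its narrowest. The means differed by 0.17 on the log2 scale (SE 0.09), with an adjusted p of 0.417 from limma. The 5 genes that were lower without overlap make up 16.1% of the set beside 4.3% of all genes, and the 1 that was higher makes up 3.23% beside 5.09%. At an unadjusted p under 0.05, 8 genes were lower, or 25.8% beside 6.9% of all genes, and none was higher beside 7.54% of all genes. These 8 were Cd2, Cd3g, Cd8a, Cd8b1, Cd4, Cd28, Ncr1 and Klrd1. SAM, the permutation method of the study, called 3.78% of all genes and 5 of the set, the same genes that were lower without overlap.

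The cytotoxic granule genes did not separate the AIRmax groups. Gzmb, which encodes the protease granzyme B, was at 3.83, 4.03, 4.69 and 5.10 in control and at 4.26, 4.28, 4.23 and 4.31 in pristane footpads. It passed the background reference only on the last 2 control arrays, so that no difference is given. Gzma, the gene of granzyme A, was at 3.82, 3.56, 3.42 and 3.38 in control and at 3.44, 3.55, 3.48 and 3.31 in pristane footpads, under the reference throughout. Prf1, the gene of pore-forming perforin, had a log2 difference of -0.19 (SE 0.12, adjusted p = 0.495 from limma).

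**Figure D2:**
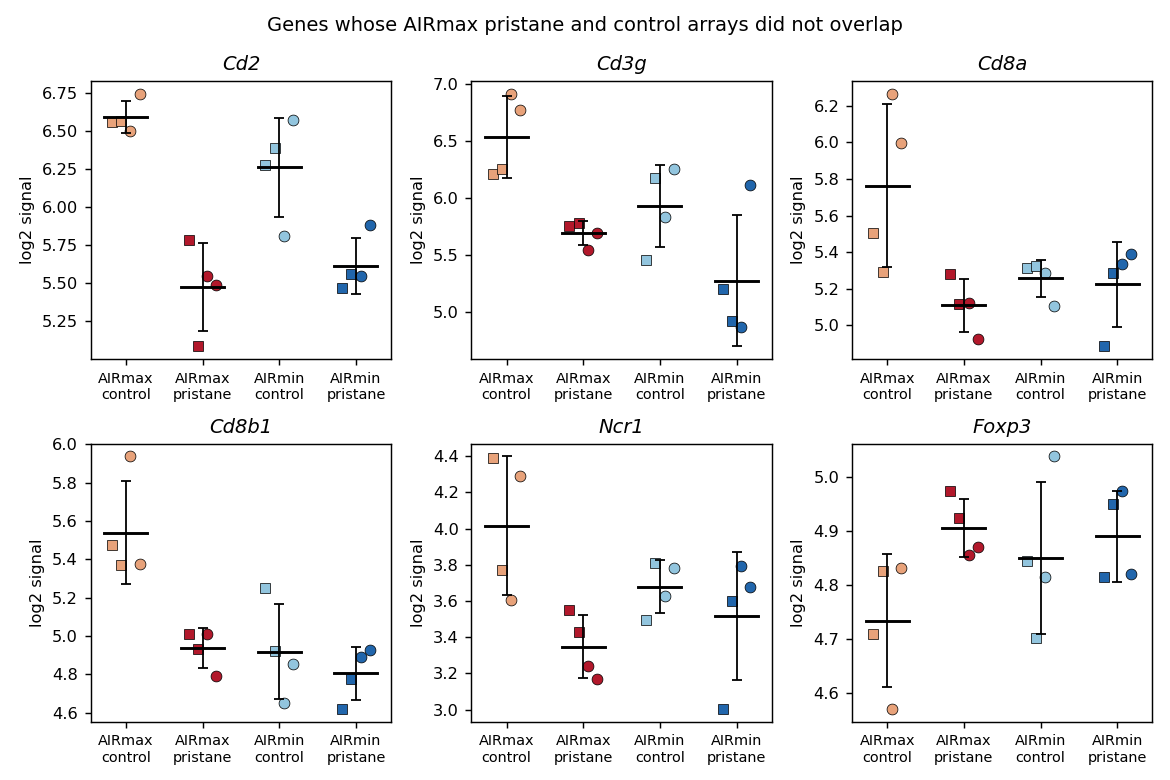
Log2 signal of the 6 genes whose AIRmax pristane and AIRmax control arrays did not overlap, by group, with squares for males, circles for females, a line at the mean and a bar of 1 SD (n = 4). Mean Cd2 signal was 6.59 in control and 5.47 in pristane arrays of AIRmax, beside 6.26 and 5.61 in those of AIRmin.

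Other cell types moved in the same comparison. Of 10 measured B cell genes, 8 were lower at an unadjusted p under 0.05, beside 6.9% of all genes. Of the 10, 7 were lower without overlap, beside 4.3% of all genes, and the median log2 change was -1.37. Cd72, another gene of the list, had a higher mean, by 1.78 on the log2 scale (SE 0.58, adjusted p = 0.223 from limma), and also passed at an unadjusted p under 0.05. Fcmr, the Fc receptor for IgM, was called with a log2 change of -1.72. Cr2 and Fcer2a, the complement and low-affinity IgE receptors of B cells, were also called lower, but lay under the background reference on all 4 pristane arrays, so that no fold is given. The B cell score, the mean deviation of the list from its 16-array means, ranged from 0.24 to 1.05 in AIRmax control and from -0.54 to -0.33 in AIRmax pristane arrays. Of those 10 genes, 5 were above the background reference on all arrays and the rest on some. Of 12 measured macrophage genes, 8 were higher at an unadjusted p under 0.05, beside 7.54% of all genes. Of the 12, 3 had a lower mean, and the median log2 change was 0.55. Cd68, Cd14 and Msr1 were called higher, and the macrophage score ranged from -0.14 to 0.08 in control and from 0.36 to 0.92 in pristane arrays. Adipocyte genes were lower by a median of -1.07 and skeletal muscle genes by a median of -0.97 on the log2 scale, with none called. All 6 calls of B cell and macrophage genes were lost without array 105 and likewise without array 106, and some without other single arrays, with an adjusted p of at most 0.157 from limma. The part of these cell types in the lower signals of Cd2 and the other T cell genes was not tested.

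In the resistant AIRmin line, no gene of the set was called, beside 0% of all genes, since limma called none of the 19938 genes in this comparison. That count was 138 without array 118, which had the highest granulocyte precursor score of the line, and 760 with that score, described below, as a covariate. At an unadjusted p under 0.05, 2469 genes passed, and the set held 4 of them, or 12.9% beside 12.4% of all genes. All 4 were lower, beside 7.27% of all genes: Cd2, Cd3g, Thy1 and Klrb1c. None was higher, beside 5.12% of all genes. SAM called 416 genes, or 2.09%, and 1 of the set, Cd2. No gene of the set had separated groups, beside 7.51% of all genes, and 18 genes of the set had a lower mean in pristane footpads, against 45.3% of all genes. Their median log2 change was -0.03 against 0.02 over all genes.

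Cd2 was at 6.28, 6.39, 5.81 and 6.58 in AIRmin control and at 5.47, 5.56, 5.54 and 5.88 in AIRmin pristane footpads. A single array on each side brought the groups into contact, the third control array and the fourth pristane array. The log2 difference was -0.65 (SE 0.16), with an adjusted p of 0.144 from limma. Cd3g was at 5.46, 6.17, 5.84 and 6.25 in control and at 5.20, 4.93, 4.87 and 6.11 in pristane footpads, where 3 arrays lay below all controls and the fourth among them. The log2 difference was -0.65 (SE 0.28, adjusted p = 0.375 from limma).

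The CD8 and CD4 genes showed little separation in AIRmin. Cd8a was at 5.31, 5.32, 5.28 and 5.11 in control and at 4.88, 5.28, 5.33 and 5.39 in pristane footpads, a log2 difference of -0.03 (SE 0.12). Cd8b1 was at 5.25, 4.92, 4.65 and 4.85 in control and at 4.62, 4.78, 4.89 and 4.93 in pristane footpads, a log2 difference of -0.11 (SE 0.13). Cd4 was at 4.85, 5.09, 4.77 and 4.93 in control and at 4.46, 4.76, 4.57 and 4.92 in pristane footpads, a log2 difference of -0.23 (SE 0.12). In each of the 3 genes the groups overlapped.

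Cd3e was at 5.61, 5.62, 5.50 and 5.38 in AIRmin control and at 5.60, 5.66, 5.74 and 5.73 in AIRmin pristane footpads, a log2 difference of 0.16 (SE 0.09, adjusted p = 0.519 from limma). Foxp3 was at 4.85, 4.70, 4.82 and 5.04 in control and at 4.81, 4.95, 4.98 and 4.82 in pristane footpads, a log2 difference of 0.04 (SE 0.10). The groups of both genes overlapped. Ncr1 was at 3.50, 3.81, 3.63 and 3.78 in control and at 3.0, 3.60, 3.79 and 3.68 in pristane footpads, all under the background reference. Gzmb was at 4.06, 4.07, 3.89 and 3.90 in control and at 3.97, 4.37, 3.72 and 3.95 in pristane footpads, and Gzma was at 3.18, 3.55, 3.35 and 3.82 against 3.19, 3.26, 3.34 and 3.25, again under the reference on each array.

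Thy1, a surface protein of T cells that fibroblasts and nerve cells also carry, was named after its values were seen. It was at 7.74, 7.86, 8.67 and 8.14 in AIRmin control and at 7.51, 7.0, 7.57 and 7.90 in AIRmin pristane footpads. Only the highest pristane array reached into the control range. The log2 difference was -0.61 (SE 0.23, adjusted p = 0.316 from limma). In the same comparison 7 of 7 fibroblast genes were lower at an unadjusted p under 0.05, with a median log2 change of -0.86. Over all genes 7.27% were lower at that threshold, which is the share for the other cell types below as well. The fibroblast score ranged from 0.20 to 0.47 in AIRmin control and from -0.96 to -0.18 in AIRmin pristane arrays. The B cell score ranged from 0.05 to 0.65 and from -0.76 to -0.30, with 8 of 10 B cell genes lower at an unadjusted p under 0.05 and a median log2 change of -0.81. Of 12 macrophage genes, 9 were lower at an unadjusted p under 0.05, with a median of -0.44. Of these, 5 were lower without overlap, beside 7.51% of all genes without overlap in either direction. Of 7 adipocyte genes 4 were lower at that threshold of p, with a median of -0.73. The part of these cell types in the lower Thy1, Cd2 and Cd3g signals was not tested.

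Whether the lines differed in their response was tested directly by the interaction, the AIRmax response minus the AIRmin response over all 16 arrays. None of the 31 genes was called, beside 0.171% of all genes (34, all with a higher response in AIRmax). At an unadjusted p under 0.05, 2 genes of the set had a lower response in AIRmax, or 6.45% beside 2.82% of all genes, and none had a higher one, beside 5.39%. Both were CD8 chains. For Cd8a the difference of responses was -0.62 on the log2 scale (SE 0.25, adjusted p = 0.519 from limma), and for Cd8b1 it was -0.49 (SE 0.20, adjusted p = 0.524 from limma). For Cd2 it was -0.47 (SE 0.23, adjusted p = 0.630 from limma), so that the larger change in AIRmax is not shown to differ from that in AIRmin. The difference was below 0 for 25 of the 31 genes beside 48.7% of all genes, with a median of -0.19 against 0.01.

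**Figure D3:**
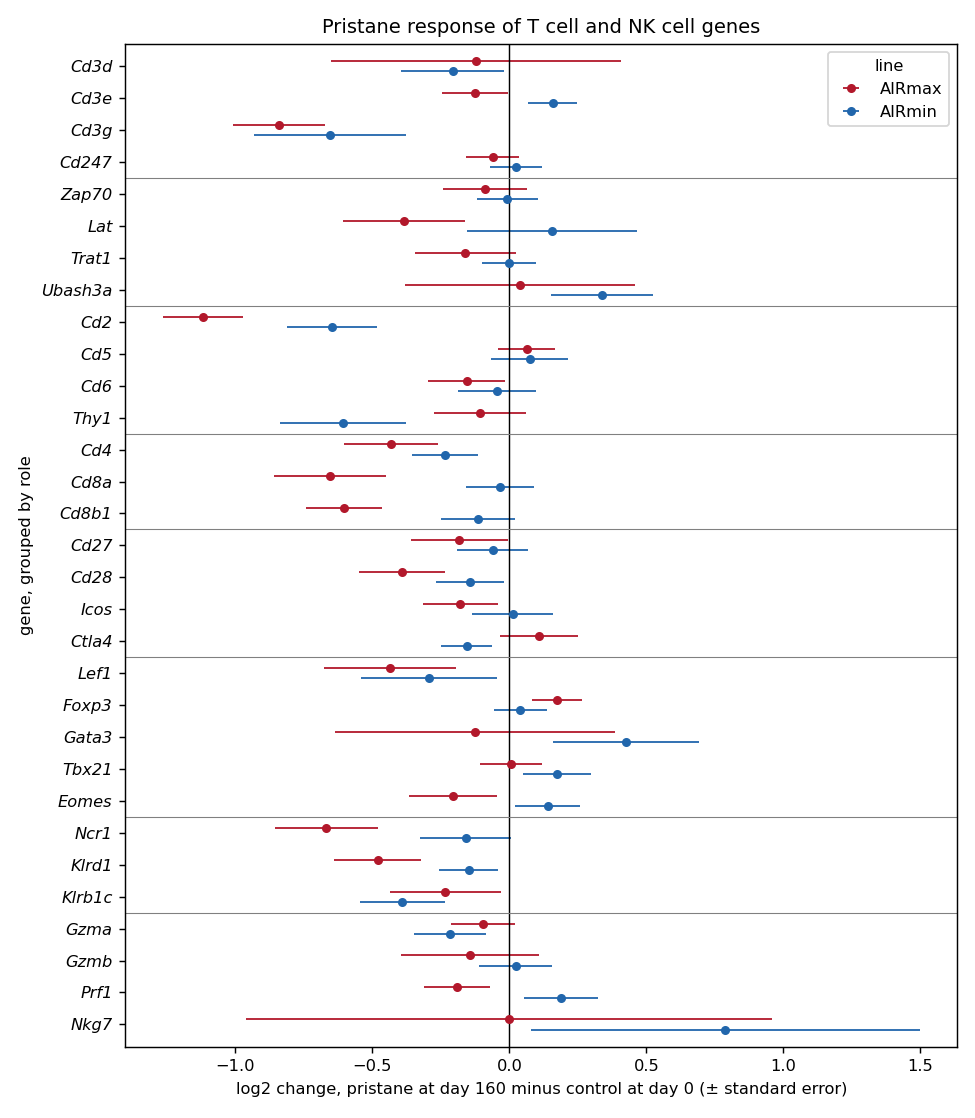
Log2 change from control to pristane footpads of each of the 31 genes in AIRmax (red) and AIRmin (blue), with bars of 1 standard error from limma and genes grouped by role. Cd2 at -1.12 in AIRmax was the single called change, Cd3g lay at -0.84 and -0.65 in the 2 lines, and Nkg7 had the widest bars.

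The control footpads show how far the lines differed at day 0. None of the 31 genes was called, beside 0.0802% of all genes (16), and 9 of the 31 were higher in AIRmax at an unadjusted p under 0.05, or 29% beside 8.38% of all genes. None was lower, beside 8.4% of all genes. The 9 were Cd8b1, Cd4, Lat, Eomes, Cd3g, Nkg7, Cd8a, Ubash3a and Icos, and they include all 3 coreceptor genes. Of the 9, Eomes was above the background reference on 1 AIRmax control array and on no AIRmin control array. Icos was above it on 4 AIRmax control arrays and on 1 AIRmin control array. The median log2 difference over the 31 genes was 0.24 against -0.03 over all genes, and 8 genes had a lower mean in AIRmax, against 56.8% of all genes. SAM called 280 genes, or 1.4%, and none of the set.

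A total of 4 genes were higher in AIRmax without overlap, or 12.9% beside 5.39% of all genes. Cd8b1, whose values are given above, differed by 0.62 on the log2 scale (SE 0.16, adjusted p = 0.185 from limma), and Cd4 by 0.33 (SE 0.09, adjusted p = 0.205 from limma). Lat, the adaptor on which the signals of the receptor converge, was at 6.57, 6.21, 6.80 and 7.02 in AIRmax control and at 5.86, 6.20, 5.41 and 6.19 in AIRmin control footpads. The groups were barely apart, since the lowest AIRmax array hardly exceeded the highest AIRmin array. Their means differed by 0.73 on the log2 scale (SE 0.21, adjusted p = 0.206 from limma). In pristane footpads Lat was at 6.32, 5.92, 6.03 and 6.79 in AIRmax and at 5.51, 6.94, 5.58 and 6.26 in AIRmin. There the groups overlapped broadly.

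Ubash3a, a protein of T cells that dampens signalling from the receptor, was at 5.61, 5.60, 5.58 and 6.90 in AIRmax control and at 5.12, 5.26, 4.92 and 5.49 in AIRmin control footpads. The fourth AIRmax array, number 108, stood far above the other 3. The log2 difference was 0.72 (SE 0.29, adjusted p = 0.257 from limma), and without array 108 it was 0.40. In pristane footpads it was at 6.51, 5.22, 5.38 and 6.75 in AIRmax and at 5.13, 6.01, 5.43 and 5.58 in AIRmin, so that high arrays occurred in both lines. Cd3g differed by 0.61 (SE 0.21, adjusted p = 0.235 from limma) and Cd8a by 0.51 (SE 0.19, adjusted p = 0.251 from limma) on the log2 scale, both with overlap.

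At day 160 the pristane footpads of the lines did not differ in any gene of the set by the threshold, beside 1.36% of all genes called (271). That total ran from 14 without array 117 to 520 without array 110 and was 1519 with all 16 arrays in 1 fit, and no gene of the set was called in any of these fits. No gene had separated groups, beside 10.8% of all genes, and the median log2 difference was 0.02 against -0.01. At an unadjusted p under 0.05 there was 1 gene, Cd3d, with a log2 difference of 0.84 (SE 0.31, adjusted p = 0.186 from limma), or 3.23% of the set beside 18.8% of all genes in either direction and 8.77% higher in AIRmax. SAM called 1016 genes, or 5.1%, and none of the set. For Cd2, the log2 difference was -0.14 (SE 0.16), and for Cd8a and Cd8b1 it was -0.11 (SE 0.14) and 0.13 (SE 0.11). These pristane groups, and the control groups above, are the same arrays as in the responses, so the comparisons are not independent of each other.

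Nkg7, a membrane protein of the cytotoxic granules of NK and T cells, spread most widely of the 31 genes and is described because of that spread, which was seen first. It was at 7.02, 7.15, 7.89 and 9.80 in AIRmax control, 9.39, 6.65, 5.95 and 9.88 in AIRmax pristane, 6.07, 6.17, 5.35 and 7.44 in AIRmin control, and 6.03, 8.86, 5.47 and 7.82 in AIRmin pristane footpads. Arrays 108, 109, 112 and 118, from 3 groups and both sexes, were its 4 highest. Its log2 difference between the AIRmax and AIRmin controls was 1.71 (SE 0.62, adjusted p = 0.240 from limma), and its AIRmax mean was 7.97 at day 0 (SD 1.28) as well as at day 160 (SD 1.96).

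Those 4 arrays also had the highest scores for 8 genes of granulocyte precursors, among them Elane and Mpo, the genes of neutrophil elastase and myeloperoxidase, which are transcribed mainly in bone marrow. The score was 2.13 on array 108, 2.15 on array 109, 2.06 on array 112 and 1.40 on array 118, and from -2.89 to 0.43 on the other 12. All 8 precursor genes were above the background reference on all 16 arrays. Nkg7 and Ubash3a had exactly these 4 arrays as their highest, as did 858 genes, or 4.3% of all. Lef1, a transcription factor of T cells that hair follicles and skin also express, had exactly these 4 as its lowest, as did 313 genes, or 1.57% of all. The score of keratinocyte genes was also lowest on these 4 arrays, at -0.70 on array 108, -0.78 on 109, -1.70 on 112 and -0.28 on 118. The part of either score in the Lef1 signal was not tested. Lat, Cd3d, Cd27 and Gzmb shared 3 of their 4 highest arrays with the granulocyte precursor score. How many of all genes did so was not counted, so this is not shown to be particular to them.

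Cd3d, the delta chain of CD3, spread widely within the AIRmax groups. It was at 5.28, 4.65, 4.54 and 6.94 in AIRmax control and at 5.73, 4.48, 4.92 and 5.80 in AIRmax pristane footpads, high on the same arrays 108, 109 and 112. In AIRmin it was at 4.66, 4.55, 4.28 and 4.90 in control and at 4.13, 4.68, 4.04 and 4.71 in pristane footpads, near the background reference. Gata3, a factor of helper T cells that skin epithelium also uses, ran the other way. It was at 8.57, 8.57, 8.34 and 7.16 in AIRmax control and at 7.70, 9.08, 8.62 and 6.74 in AIRmax pristane footpads, lowest on arrays 108, 109 and 112. The keratinocyte score on these 3 arrays was -0.70, -0.78 and -1.70, beside -0.28 to 0.84 on the others. In AIRmin, Gata3 was at 8.95, 8.64, 8.53 and 8.01 in control and at 9.02, 8.22, 9.39 and 9.21 in pristane footpads.

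**Figure D4:**
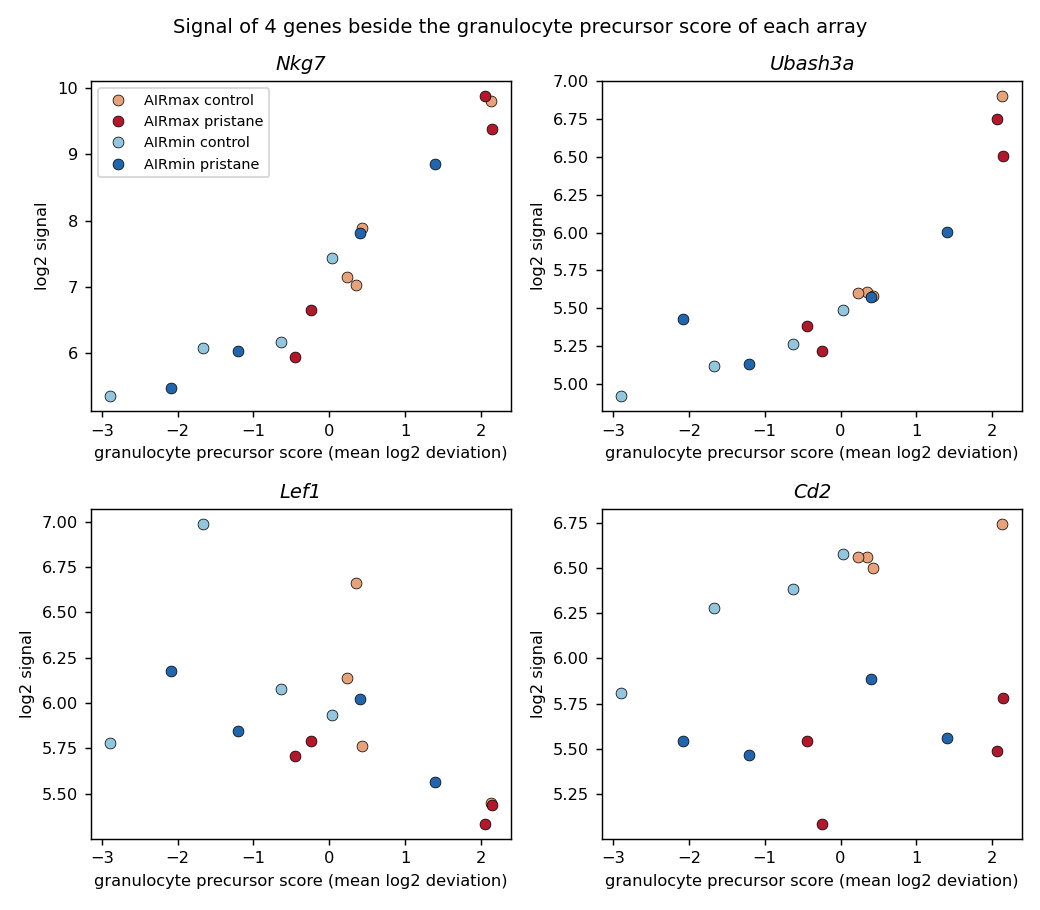
Log2 signal of Nkg7, Ubash3a, Lef1 and Cd2 on each array against the granulocyte precursor score of that array, the mean log2 deviation of 8 genes from their 16-array means, colored by group. Nkg7 and Ubash3a were highest and Lef1 lowest on the 4 arrays with scores from 1.40 to 2.15, while Cd2 lay at 5.81 to 6.75 on control arrays and at 5.09 to 5.88 on pristane arrays.

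In the control footpads the granulocyte precursor score ran from 0.23 to 2.13 in AIRmax and from -2.89 to 0.03 in AIRmin. All 8 precursor genes were higher in AIRmax at an unadjusted p under 0.05, beside 8.38% of all genes. Their median difference was 2.18 on the log2 scale. The score did not overlap between the control groups, so that its part in the line differences of Nkg7, Ubash3a, Lat and the coreceptor genes cannot be told apart from line. Without the 4 arrays, which left 3 control and 2 pristane arrays in AIRmax, the Cd2 response in that line was -1.23 (SE 0.15, adjusted p = 0.0158 from limma). With the score as a covariate it was -1.13 (SE 0.12, adjusted p = 0.00519 from limma). Calls over all genes rose as well, to 2.14% without the 4 arrays and 2.23% with the score, beside 0.281% in the main fit.

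A wider list of 168 genes of T and NK cells, in 7 groups from receptor signalling to NK receptors, cytokines and gamma delta T cells, had 145 measured genes. None of the 145 was called in the AIRmax response, beside 0.281% of all genes. At an unadjusted p under 0.05, 7 were higher there, or 4.83% beside 7.54% of all genes. At the same threshold 17 were lower, or 11.7% beside 6.9%, and the median log2 change was -0.03. In the AIRmin response none was called, beside 0% of all genes. There 6 were higher at that threshold, or 4.14% beside 5.12% of all genes. A further 21 were lower, or 14.5% beside 7.27%, and the median was -0.04. Between the controls none was called, beside 0.0802% of all genes. At that threshold 34 were higher in AIRmax, or 23.4% beside 8.38% of all genes. The 4 that were lower made up 2.76% beside 8.4%, and the median was 0.09. None was called in the interaction, beside 0.171% of all genes. At that threshold 7 were higher and 7 lower there, or 4.83% each beside 5.39% and 2.82% of all genes.

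In pristane footpads, 2 of the 145 were called between the lines, or 1.38% beside 1.36% of all genes. At an unadjusted p under 0.05, 28 were higher in AIRmax, or 19.3% beside 8.77% of all genes, and 10 lower, or 6.9% beside 10.1%, with a median log2 difference of 0.15. Havcr2, the inhibitory receptor TIM-3 of T cells that macrophages and dendritic cells also carry, was at 6.36, 6.48, 6.77 and 7.03 in AIRmax and at 5.61, 5.95, 5.28 and 5.85 in AIRmin. All AIRmax arrays were above all AIRmin arrays, and the log2 difference was 0.99 (SE 0.19, adjusted p = 0.0436 from limma). The call was lost without array 111, 112, 117, 119 or 120, where the adjusted p reached 0.152. In the same comparison 11 of 12 macrophage genes were higher in AIRmax at an unadjusted p under 0.05, by a median of 1.12 on the log2 scale, and their part in the Havcr2 signal was not tested. Tnfrsf4, the costimulatory receptor OX40 of activated T cells, was at 5.37, 5.37, 5.34 and 5.24 in AIRmax and at 5.74, 5.76, 5.73 and 5.80 in AIRmin pristane footpads. It was lower in AIRmax without overlap, with a log2 difference of -0.43 (SE 0.09, adjusted p = 0.0482 from limma). That call was lost with any single array left out, where the adjusted p from limma reached 0.155. Between the controls Tnfrsf4 also had a lower mean in AIRmax, with overlap. The log2 difference there was -0.26 (SE 0.10, adjusted p = 0.249 from limma). The difference of its responses between the lines was -0.17 (SE 0.12, adjusted p = 0.796 from limma).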

How the data were processed

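The arrays were Affymetrix Mouse Gene 1.0 ST, for footpad RNA of 4 groups of 4 mice. The values deposited by the authors are log2 signals per probe set. The sample titles name RMA and the submitters' processing notes name MAS5, both without a version, and the values were used as deposited. Of 35556 probe sets, 21789 named 1 gene, 1621 several and 12146 none in the platform annotation. The brightest probe set on average stood for each of 19938 genes (999 had more than 1).

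Pairs of groups were compared with limma 3.58.1 (lmFit and eBayes, constant prior) in R 4.3.3 on their 8 arrays, and the interaction on all 16. P-values were adjusted by Benjamini-Hochberg over all genes, with a threshold of 0.05. The study describes its arrays as biological replicates, and the 4 arrays per group limit the precision. SAM, the study's test, was written anew (false discovery rate 0.05). The other alternatives were averaging the probe sets of a gene, keeping genes above the median signal, standardizing the arrays or normalizing them by quantiles, fitting all 16 arrays together, adding sex as a term, using a trended robust prior, and leaving out each array. The granulocyte precursor score as a covariate, and its 4 highest arrays left out, were chosen after seeing the data. The fits were tested on simulated data. Within the set, values on every array are given for called genes, genes with separated groups, and Cd3e, Cd4, Cd8a, Foxp3, Ncr1, Gzma and Gzmb. Nkg7, Cd3d, Gata3, Thy1 and Lef1 were named after their values were seen. Called genes of the wider T and NK list are described above. Those of the cell type lists are described for the AIRmax response only. Between the pristane groups, Cd68, Adgre1, Cd14, Msr1, Fcgr1, Col3a1 and Lum were called higher in AIRmax, and Tpsab1 and Mb lower. Tpsab1 was also called lower in AIRmax between the controls, and Cd68, Cd14 and Msr1 were called in the interaction. The genes and lists were chosen with earlier results of these data known. A listed group of T cell receptor loci had no measured gene. Tables and figures were made with Python 3.11.15, numpy 2.4.6, pandas 2.3.3 and matplotlib 3.10.9.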

Additional observations from a re-analysis of the deposited data

Results flagged for a closer look

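Of 124 sets of 4 arrays (31 genes in 4 groups), 3 held an array far from the other 3, and chance flags about 1 in 20 such sets. In AIRmax control footpads, array 108 was at 6.90 for Ubash3a, with the nearest array at 5.61. The same array was at 7.16 for Gata3, with the nearest at 8.34. In AIRmin control footpads, array 116 was at 3.62 for Klrb1c, with the nearest at 3.18, all under the background reference.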

How the results depend on the processing

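In AIRmax, the number of genes of the set called between pristane and control was 1 and became 0 among genes above the median signal (4 of the 31 tested, Cd2 not among them), 2 with all 16 arrays in 1 fit (Cd2 and Cd8b1), 5 by SAM (Cd2, Cd3g, Cd8a, Cd8b1 and Ncr1), 2 without the 4 arrays with the highest granulocyte precursor score (Cd2 and Cd4), 2 with that score as a covariate (Cd2 and Cd3g), and 0 to 1 with single arrays left out. Over these fits the adjusted p of Cd2 from limma ran from 0.00291 to 0.106. All genes called numbered 56, with 338 in the fit of 16 arrays, 109 with sex as a covariate and 754 by SAM. They numbered 426 without the 4 arrays, 444 with the score, and 4 (without array 106) to 107 (without array 109) with single arrays left out. With single arrays left out, all genes called ran from 0 to 138 in AIRmin, 14 to 520 between the pristane groups (271 with all), 9 to 19 between the controls (16 with all) and 15 to 120 in the interaction (34 with all). In AIRmin the number was 0, and 1 (Cd2) by SAM and with the score as a covariate, where Cd2 changed by -0.77 (adjusted p = 0.0205 from limma), and the median log2 change was -0.10 to 0.02 with single arrays left out. Median log2 changes moved among genes above the median signal to 0.29 in AIRmin, 0.18 between the pristane groups and -0.55 in the interaction, over 4 genes each. Between the controls, the median was 0.15 to 0.29 with single arrays left out and 0.0695 with the score as a covariate, where the score separates the lines. In the interaction it was -0.30 to -0.13 with single arrays left out. Cd2 in AIRmax kept its direction in every one of these fits that tested it. So did the 8 called genes outside the set that were followed, namely Fcmr, Cr2, Fcer2a, Cd68, Cd14, Msr1, Havcr2 and Tnfrsf4. The other called genes outside the set were not followed over these fits. Havcr2 was also not called with sex as a covariate or without the 4 arrays (adjusted p from limma up to 0.152 over all fits). Tnfrsf4 was called in 3 of 16 fits (adjusted p from limma up to 0.252). No paired analysis was possible because the labels give each array a number of its own. With 4 arrays per group, control at day 0 and pristane at day 160, and array numbers in blocks by group, neither day nor processing order can be told apart from treatment. Genes at or under background, such as the NK receptors, are compared with little precision.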
